A study of Mus musculus with 8 samples.

Results

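Ccl20, Glycam1, Cyp1b1 and Ccl21a are 4 genes known from lymph node endothelium, and their transcripts were followed in single tumour endothelial cells (ECs). They were 4 of 20408 genes found in any of 8 single-cell libraries, and they were picked by name from earlier results on these same data: their share of positive cells, their concentration in few cells and their co-detection with Prox1 and Enpp2, by model and treatment. All of these values are therefore given as descriptions, without a test. Ccl20 lies on chromosome 1 (GRCm38, chr1:83116766-83119167, plus strand), Glycam1 on chromosome 15 (chr15:103562759-103565081, minus strand), Cyp1b1 on chromosome 17 (chr17:79701537-79715061, minus strand) and Ccl21a on chromosome 4 (chr4:42772860-42773993, minus strand).

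Lymph nodes take up lymphocytes from blood through high endothelial venules, whose ECs carry sulphated and fucosylated sugars that lymphocytes bind. Glycam1 encodes a secreted mucin that bears such sugars and is also made by mammary epithelium during lactation. Chst4 and Fut7 encode a sulphotransferase and a fucosyltransferase that build them, and Enpp2 encodes autotaxin, an enzyme that high endothelial cells secrete. Lymph itself enters and leaves the node through sinuses lined by lymphatic ECs, whose identity depends on the transcription factor Prox1. Ccl21a encodes a chemokine that lymphatic and high endothelial cells use to attract cells with the receptor Ccr7, Ccl20 encodes the chemokine ligand of Ccr6 that ECs lining the subcapsular sinus floor can make, and Cyp1b1 encodes a cytochrome P450 that is a classic target of the aryl hydrocarbon receptor.

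The 4 groups held 2 libraries each, from 2 mice per group according to the methods. Spontaneous tumours arose in adult MMTV-PyMT mice, in which a mammary promoter drives a viral oncogene in mammary epithelium, and implanted tumours grew from cultured MMTV-PyMT tumour cells placed in the mammary fat pad of mice without the transgene. Each tumour was injected with PBS or with cGAMP, a cyclic dinucleotide that activates the innate sensor STING, and live CD45-/CD31+ cells were sorted 3 h later. The labels give c57bl/6 as the strain of every library whereas the methods name FVB mice, and this was not settled. Of 8204 deposited cells, 6039 lay in clusters in which at least 75% of cells carried Pecam1, the CD31 gene, and were kept as ECs, 518 to 1146 per library with 6843219 to 15899812 UMIs (unique molecular identifiers, each standing for 1 captured transcript). Replicate 1 of implanted cGAMP stood apart in depth, its ECs holding a median of 4476.5 UMIs where the others ranged from 10696.5 to 15628, and it lost 43.4% of its cells at this step against 14.5% to 27.5%. Libraries shared 7 cell barcodes.

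The level of a gene is the mean over the ECs of a library of its UMIs per 1000000 UMIs of the cell (CPM). Ccl20 was absent from the ECs of implanted PBS tumours and highest after cGAMP in the same model. Its level was 0 and 0 CPM in the 2 implanted PBS libraries and 40.0 and 111 CPM in the implanted cGAMP libraries. In spontaneous tumours it was 6.44 and 32.6 CPM after PBS and 4.18 and 6.41 CPM after cGAMP. The 4 groups did not overlap, but the lowest spontaneous PBS library and the highest spontaneous cGAMP library were almost equal, and with median-of-ratios scaling they overlapped, Ccl20 then being 6.50 CPM in replicate 2 of spontaneous cGAMP and 5.95 CPM in replicate 1 of spontaneous PBS. Summed over a group, Ccl20 had 0 UMIs in 1912 implanted PBS ECs and 1526 UMIs, 69.6 CPM, after cGAMP. No lowest fold is given, since most of these UMIs lay in few cells and UMIs of 1 cell are not independent.

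Few cells carried these transcripts. A Ccl20 UMI was found in 15 of 1146 ECs (1.31%, Wilson 95% interval 0.795% to 2.15%) and 13 of 527 ECs (2.47%, 1.45% to 4.17%) of the implanted cGAMP libraries. After PBS in implanted tumours the 0 of 1912 ECs allows a share of up to 0.157%. The spontaneous libraries held 6 and 4 such cells after PBS and 2 and 1 after cGAMP. To set libraries of unlike depth side by side, shares were also computed for cells thinned to 2000 UMIs, leaving out 8 to 354 shallower ECs per library. The share of Ccl20 cells was then 0.806% and 1.79% in implanted cGAMP, 0% in both implanted PBS libraries, 0.467% and 0.758% in spontaneous PBS, and 0.196% and 0% in spontaneous cGAMP.

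Cyp1b1 followed the same order of groups as Ccl20. Its level was 1.67 and 1.04 CPM in implanted PBS, 15.2 and 44.5 CPM in implanted cGAMP, 12.3 and 19.5 CPM in spontaneous PBS, and 10.998 and 3.65 CPM in spontaneous cGAMP. The implanted cGAMP and spontaneous PBS ranges overlapped, and the other neighbours in this order did not. With UMIs summed per library the spontaneous groups overlapped too, Cyp1b1 then being 10.8 CPM in replicate 1 of cGAMP and 10.1 CPM in replicate 1 of PBS. On the log2(CPM + 1) scale the cGAMP minus PBS difference was 3.54 ± 0.77 (SE, n = 2 libraries per group) in implanted and -1.14 ± 0.75 in spontaneous tumours. The share of cells with a Cyp1b1 UMI at 2000 UMIs was 0.27% ± 0.09 (SD, n = 2) in implanted PBS and 2.42% ± 1.33 in implanted cGAMP. No implanted PBS cell held more than 3 Cyp1b1 UMIs, whereas the highest cell of the other groups held 29, 34 and 41.

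Glycam1 was lower after cGAMP in spontaneous tumours. Its level was 527 and 563 CPM after PBS and 31.8 and 42.6 CPM after cGAMP, a difference of -3.85 ± 0.21 (SE) on the log2(CPM + 1) scale, and the groups did not overlap. In implanted tumours it was 72.7 and 1013 CPM after PBS and 176 and 93.9 CPM after cGAMP, and these groups did overlap. The 2 implanted PBS libraries differed 13.9-fold from each other, and their range spanned those of implanted cGAMP and of spontaneous PBS, so no order of these groups can be given.

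For Ccl21a only the implanted cGAMP libraries stood apart. Their levels were 1901 and 1386 CPM, against 420.1 and 244 CPM in implanted PBS, a difference of 2.34 ± 0.45 (SE) on the log2(CPM + 1) scale. In spontaneous tumours the levels were 306 and 856 CPM after PBS and 679 and 380.0 CPM after cGAMP, a difference of -0.01 ± 0.85. The 3 other groups overlapped with each other, and the 4 levels in spontaneous tumours could not be ordered by treatment. At 2000 UMIs the share of Ccl21a cells reached 8.91% and 6.24% after cGAMP in implanted tumours, and ranged from 1.56% to 3.59% elsewhere. Mouse Ccl21a has near-identical gene copies, so how reads were divided among them is uncertain.

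**Figure D1:**
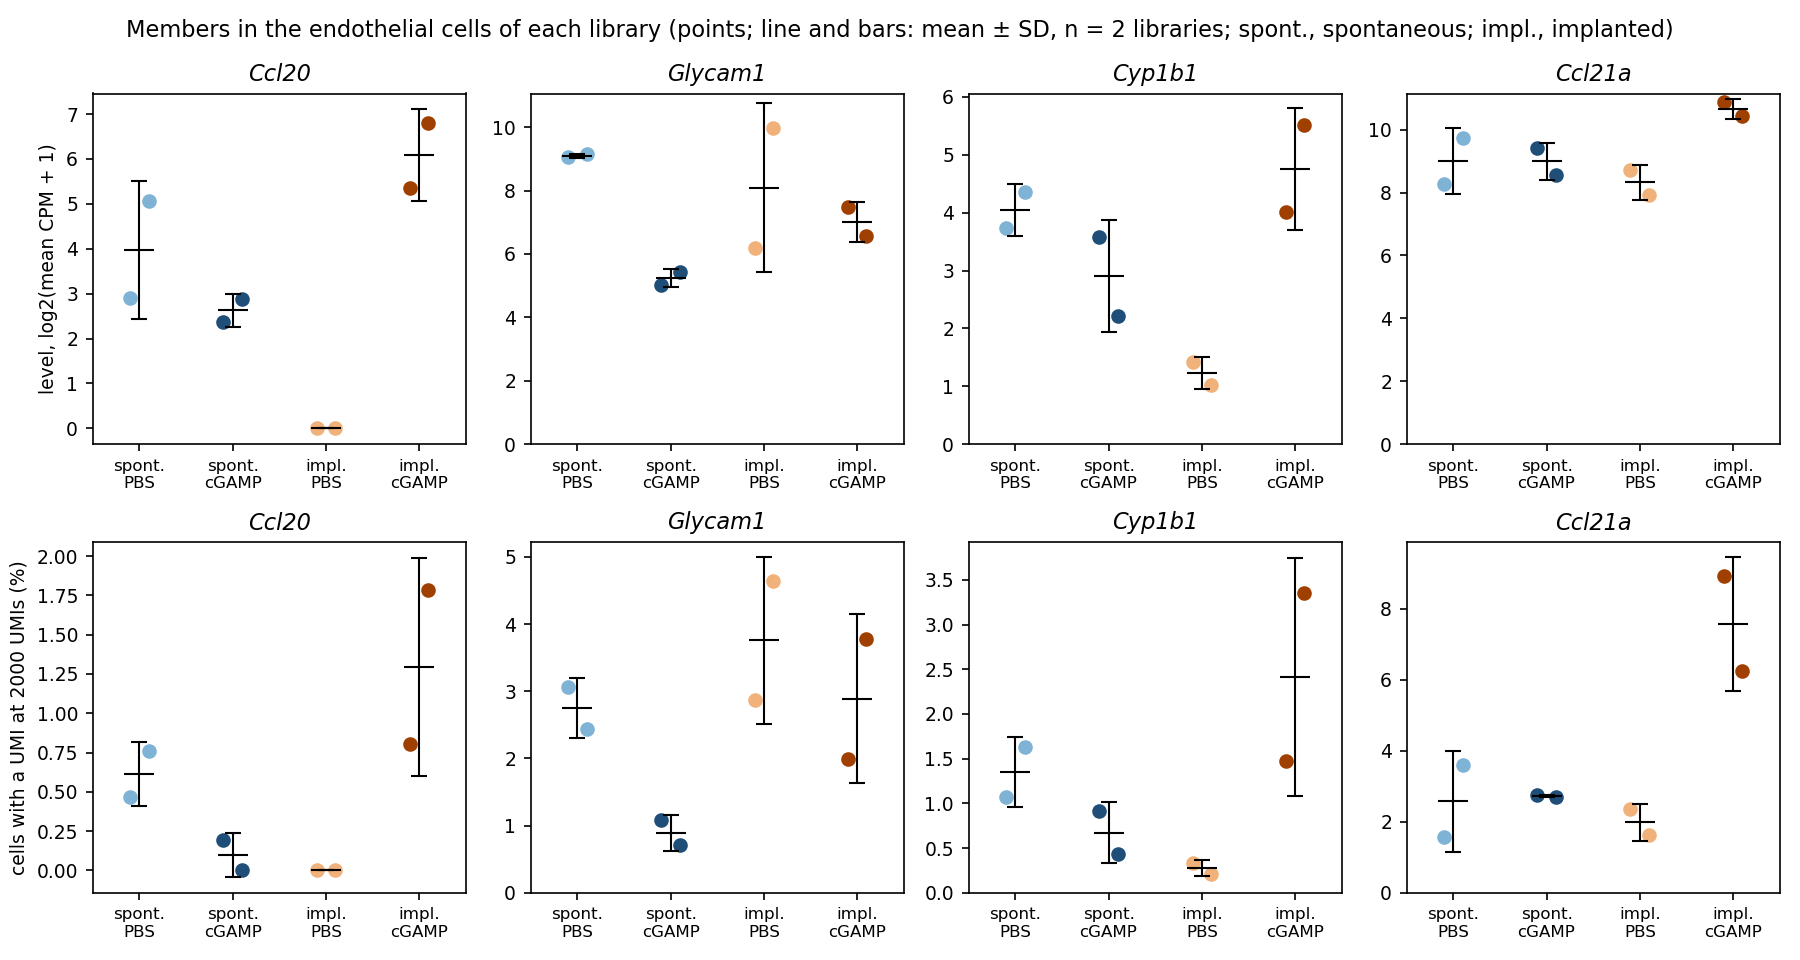
Level of each gene as log2(mean CPM + 1) (upper row) and share of ECs with a UMI after thinning to 2000 UMIs, in percent (lower row), with 1 point per library and the mean ± SD of the 2 libraries of each group. By group mean, Ccl20 and Cyp1b1 were lowest in implanted PBS and highest in implanted cGAMP. For Cyp1b1, replicate 1 of implanted cGAMP lay below replicate 2 of spontaneous PBS in both rows. Glycam1 was lower after cGAMP in spontaneous tumours, and Ccl21a was above all other libraries in implanted cGAMP.

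These levels rested on very few cells. Of 1789 Ccl20 UMIs in ECs, 86.7% were in the 10 cells with the most, which held 42 to 353 each and came from implanted cGAMP (8 cells) and spontaneous PBS (2 cells). A single cell held 56.2% and 37.0% of the Ccl20 UMIs of the implanted cGAMP libraries, and 3 or 4 cells held 90%. For comparison, the gene in the middle of all genes with at least 100 UMIs had 1.66% and 2.13% of its UMIs in its top cell in these libraries. Counting Ccl20 itself, 5 of 8612 and 7 of 7963 such genes were at least as concentrated as Ccl20.

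For Glycam1 the 10 cells with the most Glycam1 held 90.3% of its 70076 UMIs, at 1238 to 12086 UMIs each, which was 2.88% to 35.1% of all transcripts of the cell. They lay in 4 libraries: 4 in replicate 2 of implanted PBS, 2 in replicate 1 of implanted cGAMP and 2 in each spontaneous PBS library. Neither spontaneous cGAMP library held one. These cells were deep, at 27399 to 73525 UMIs in total against a median of 12241 in ECs without Glycam1. No doublet caller was run, and the part of joined cells in these totals was not tested. Without the 10 cells, the Glycam1 level of spontaneous PBS fell to 83.8 and 183 CPM, still above both cGAMP libraries, and that of replicate 2 of implanted PBS fell to 113 CPM, near the 72.7 CPM of replicate 1.

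Cyp1b1 and Ccl21a were spread more widely. The top 10 cells held 38.4% of 773 Cyp1b1 UMIs and 27.7% of 60759 Ccl21a UMIs. In replicate 1 of implanted cGAMP, 32 cells were needed to reach 90% of the Ccl21a UMIs, against 7 to 15 cells in the other libraries. Single UMIs were common for all 4 genes: 204 of 392 Glycam1 cells, 145 of 409 Ccl21a cells, 37 of 109 Cyp1b1 cells and 11 of 41 Ccl20 cells held 1 UMI.

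**Figure D2:**
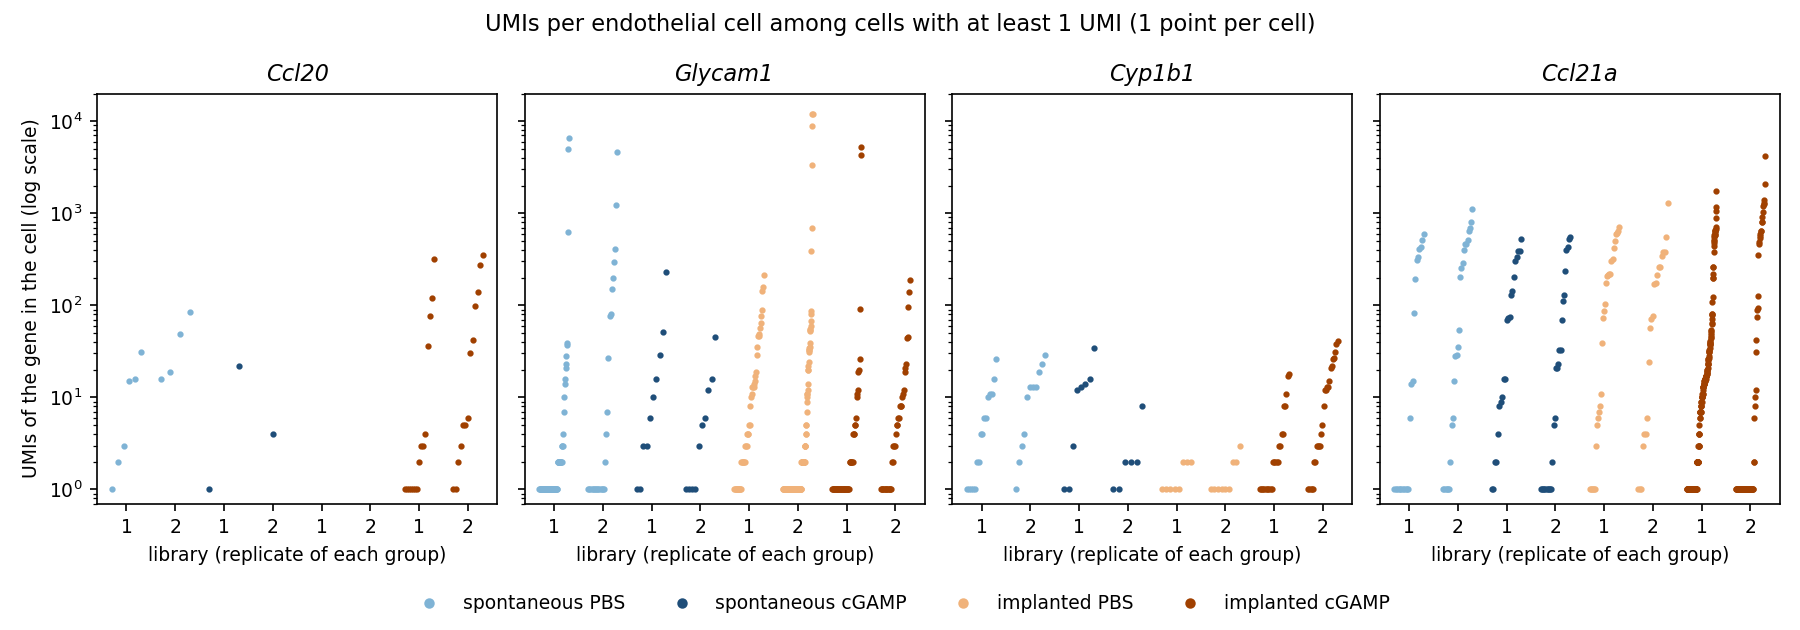
UMIs of each gene in each EC that carries it, on a log axis, with 1 point per cell and 1 column per library (replicates 1 and 2 of each group). A few Glycam1 cells of spontaneous PBS, replicate 2 of implanted PBS and replicate 1 of implanted cGAMP lie above 1000 UMIs, Ccl20 has no cell in implanted PBS, and Ccl21a fills many values in replicate 1 of implanted cGAMP.

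Free RNA can place single UMIs in cells that do not make a gene. Among sorted mural-like cells, which carried Rgs5 and were set aside from the ECs (335 cells with at least 2000 UMIs, median 12553 UMIs), Ccl20 was in 0, Glycam1 in 2.39%, Cyp1b1 in 6.57% and Ccl21a in 2.99%. Single mural-like cells held up to 134 Glycam1, 6 Cyp1b1 and 247 Ccl21a UMIs, so these shares do not measure free RNA alone and set no background. The ECs outside clusters 6, 10 and 11 described below, again with at least 2000 UMIs, were 5038 cells (median 13387 UMIs). Glycam1 was in 5.62% of them, Cyp1b1 in 0.73% and Ccl21a in 2.38%. By library, the Ccl21a share of these ECs was 7.66% and 8.95% in implanted cGAMP and 0.203% to 1.54% elsewhere. The part of free RNA in the Ccl21a shares of implanted cGAMP given above was not tested.

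ECs were clustered again without the 4 genes, Prox1, Enpp2 and the genes that cGAMP raised, which gave 12 clusters. Cluster 11, of 73 cells, held 97.4% of the Ccl20 UMIs, 87.3% of the Cyp1b1 UMIs and 79.3% of the Glycam1 UMIs. Its leading genes were Creg2, Mmp9, Art2b, C1ql3 and Dock10. It was marked by 9 lymphatic, 7 high endothelial, 4 lymph node sinus, 2 mural and 1 epithelial genes, Madcam1 counting as both high endothelial and sinus. It was given no cell type name because it mixed these. Of its cells, 57 carried Cyp1b1, with Prox1 in 46 of them and Chst4 and Fut7 in 0. Apart from these, 7 cells held at least 1000 Glycam1 UMIs, with Chst4 and Fut7 in all 7 and Prox1 in 1. Cluster 6, of 420 cells, held 87.0% of the Ccl21a UMIs and 84.0% of the Prox1 UMIs. It was lymphatic-like, with all 15 lymphatic markers and Mmrn1 as its first gene. Cluster 10, of 132 cells, was led by Enpp2 and Pde1c and held 14.6% of the Glycam1 UMIs and 58.7% of the Enpp2 UMIs.

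Cluster 11 was absent from replicate 1 of implanted PBS (0 of 895 ECs) and had 5 cells in replicate 2. It had 14 and 21 cells in implanted cGAMP (1.22% and 3.98% of ECs) and 13 and 9 in spontaneous PBS (1.59% and 1.74%). In spontaneous cGAMP it had 6 and 5 cells (1.09% and 0.883%). By share, replicate 1 of implanted cGAMP lay below both spontaneous PBS libraries. The 5 cells of implanted PBS held 36190 Glycam1 UMIs and no Ccl20 or Cyp1b1 UMI. The levels given above mix the number of such cells with the RNA per cell. Within cluster 11 the Ccl20 level was 3046 and 2705 CPM in implanted cGAMP. It was 404 and 1875 CPM in spontaneous PBS and 383 and 725 CPM in spontaneous cGAMP. Cyp1b1 was 799 and 982 CPM, 722 and 1044 CPM, and 970 and 379 CPM in the same libraries. These levels rest on 5 to 21 cells per library, and the part of each was not tested.

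**Figure D3:**
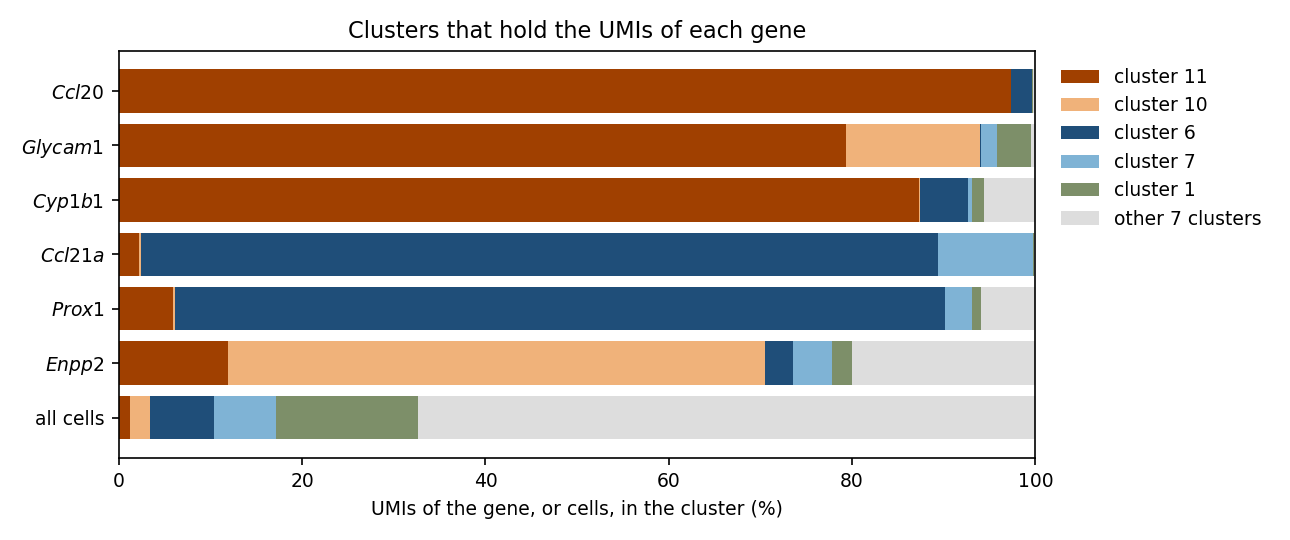
Percent of the UMIs of each gene, and of all ECs, that lay in each cluster. Cluster 11 held 1.21% of cells and most Ccl20, Cyp1b1 and Glycam1 UMIs, cluster 6 most Ccl21a and Prox1 UMIs, and cluster 10 most Enpp2 UMIs.

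Ccl20, Glycam1 and Cyp1b1 were found together. All 21 cells with at least 5 Ccl20 UMIs carried Glycam1 and 19 carried Cyp1b1, against 6.05% and 1.35% of the ECs without Ccl20. Of the 39 cells with at least 5 Cyp1b1 UMIs, 33 carried Glycam1 and 20 carried Ccl20. The medians of total UMIs were close, 14007 and 13388 in these cells against 12488 and 12497.5 in the others, and at 2000 UMIs the Glycam1 share in Ccl20 cells was 93.8% against 2.32%. Ccl21a was not part of this set: 2 of the 21 Ccl20 cells carried it and 0 of 235 cells with at least 5 Ccl21a UMIs carried Ccl20.

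Prox1 and Enpp2 were both found in the Ccl20 and Cyp1b1 cells. Prox1 was present in 18 of the 21 Ccl20 cells and 36 of the 39 Cyp1b1 cells, against 8.59% and 8.06% of the other ECs. Enpp2 was present in 17 and 32 of them, against 14.04% and 13.7%. By library, Prox1 was in 3 of 3 and 4 of 4 Ccl20 cells of spontaneous PBS, in 1 of 1 of spontaneous cGAMP, and in 4 of 4 and 6 of 9 of implanted cGAMP. Enpp2 was in the same numbers of these cells except in spontaneous cGAMP, where the 1 cell lacked it. The Prox1 content was low, 1 to 19 UMIs in the top 10 Ccl20 cells. Madcam1, the mucosal addressin gene, was present in 18 of the 21 and the lymphatic receptor gene Lyve1 in 15, against 0.97% and 6.17% of the other ECs. Chst4 and Fut7 were found in none of the 21 Ccl20 cells or the 39 Cyp1b1 cells. Rgs5, a mural marker, was present in 12 of the 21 Ccl20 cells against 9.09% of the others, and its part was not tested.

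The Glycam1 cells were of more than 1 kind. All 10 cells with at least 1000 Glycam1 UMIs carried Enpp2, Chst4, Fut7 and the venular chemokine receptor gene Ackr1, whereas Prox1 was in 1, Madcam1 in 1 and Ccl20 and Cyp1b1 in 0. In 6 of them Ccl21a was found too, at up to 413 UMIs. The 109 cells with at least 5 but under 1000 Glycam1 UMIs differed in their other genes between groups and also between libraries of a group. In the 29 such cells of spontaneous tumours, 21 carried Cyp1b1, 20 carried Prox1 and 4 carried the venular adhesion gene Selp, but in replicate 2 of spontaneous cGAMP only 1 of 5 carried Cyp1b1. In the 52 such cells of implanted PBS, 1 carried Cyp1b1, 4 carried Prox1 and 46 carried Selp, and 46 carried Ackr1. The implanted cGAMP libraries went opposite ways: of 10 such cells in replicate 1, 3 carried Cyp1b1 and 7 carried Selp, and of 18 in replicate 2, 13 carried Cyp1b1 and 3 carried Selp. Most Glycam1 cells of implanted PBS with moderate counts therefore lacked the markers of the Ccl20 cells.

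**Figure D4:**
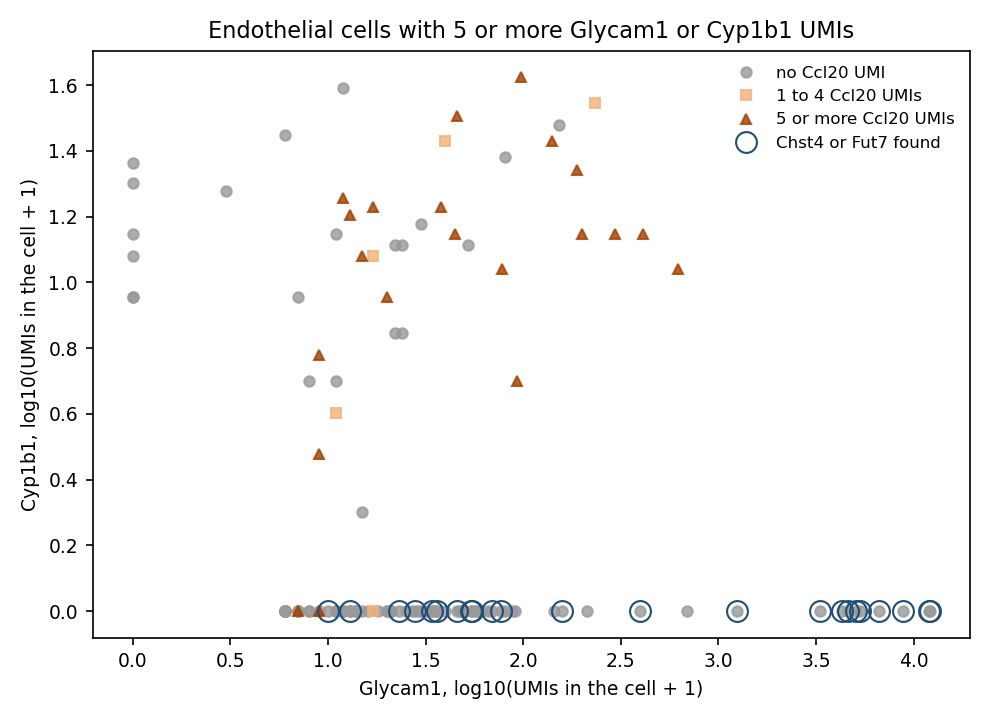
Glycam1 against Cyp1b1, as log10(UMIs in the cell + 1), in the 126 ECs with at least 5 UMIs of either gene, marked by their Ccl20 UMIs and circled where Chst4 or Fut7 was found. The 23 circled cells all lie at 0 Cyp1b1, including every cell above 1000 Glycam1 UMIs, and the 21 cells with at least 5 Ccl20 UMIs held 6 to 621 Glycam1 UMIs.

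Ccl21a cells mostly carried Prox1, and fewer of them carried Enpp2. Of 235 cells with at least 5 Ccl21a UMIs, 157 carried Prox1, 192 carried Lyve1 and 203 carried Mmrn1, against 6.11%, 3.02% and 2.97% of ECs without Ccl21a. Enpp2 was in 48 of them, 20.4% against 14.05%. Leaving out replicate 1 of implanted cGAMP, whose 110 such cells were shallow, Prox1 was in 108 of 125. Among cells with at least 2 Prox1 UMIs, the Ccl21a level was 5020 and 3590 CPM in implanted PBS and 14543 and 12029 CPM in implanted cGAMP, and 9356, 14582, 11913 and 8398 CPM in the spontaneous libraries. Prox1 itself was 58.0 ± 10.7 CPM (SD, n = 2) in implanted PBS and 62.5 ± 6.77 CPM in implanted cGAMP. The Prox1 cells were of unlike kinds between these groups. Cluster 6 had 61 and 42 cells in implanted PBS and 173 and 56 in implanted cGAMP, whereas cluster 8, led by Tmem108 and Ncam1, with Prox1 in 35.4% of its 192 cells and Ccl21a at 1.66 CPM, had 49 and 76 cells in implanted PBS and 17 and 5 in implanted cGAMP. Within cluster 6 the Ccl21a level was 5754 and 5122 CPM in implanted PBS and 11137 and 11753 CPM in implanted cGAMP, against 9493 to 19885 CPM in the spontaneous libraries.

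**Figure D5:**
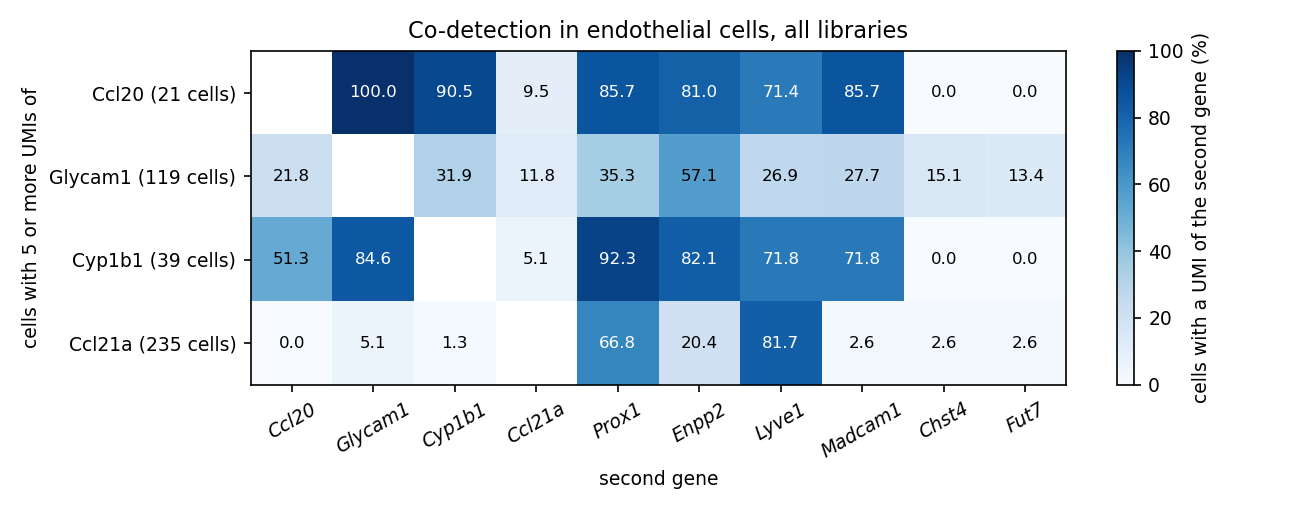
Percent of cells with at least 5 UMIs of the gene in the row (number of cells in brackets) that carried at least 1 UMI of the gene in the column, over all ECs. Ccl20 and Cyp1b1 cells share Glycam1, Prox1, Enpp2, Lyve1 and Madcam1 and lack Chst4 and Fut7, and Ccl21a cells share Prox1 and Lyve1.

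The genes whose values ran most closely with each member inside a library were taken over the same ECs as the co-detection, so they add no independent support. For Ccl20 these were Madcam1 (mean Pearson r = 0.65 over the 2 libraries with at least 10 carriers), Cpe, Glycam1, Rgs4 and Cyp1b1. For Cyp1b1 they were Il33, C3, Madcam1, Cpe and C1ql3 (r = 0.70 to 0.64 over 4 libraries), and for Ccl21a Lyve1, Mmrn1, Reln, Pard6g and Pdpn (r = 0.77 to 0.66 over 8 libraries). Glycam1 had weaker and less even neighbours, led by the desmosomal cadherin gene Dsg2 (r = 0.58, from 0.40 to 0.78 over 8 libraries) and Il4i1. Only the list of Ccl20 held other members, Glycam1 and Cyp1b1, and Madcam1 and Cpe were in the lists of both Ccl20 and Cyp1b1. Cells of 1 library share its depth and free RNA, so these values are a description.

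The bases before the start sites of Ccl20 and Cyp1b1, whose group means over all ECs ran in the same order, and of Glycam1, found in the same cells, are shown. They are from RefSeq (GRCm38.p6), as windows of 300 bases around the start, most of them before it, on the strand of the gene. Capitals mark matches on either strand to GGGA and CC with any 4 bases between them, the NF-kB site that inflammatory signals use, and to GCGTG, the core of the element that the aryl hydrocarbon receptor binds. The windows are chr1:83116516-83116815 (plus strand), chr17:79715012-79715311 (minus strand) and chr15:103565032-103565331 (minus strand).
Ccl20: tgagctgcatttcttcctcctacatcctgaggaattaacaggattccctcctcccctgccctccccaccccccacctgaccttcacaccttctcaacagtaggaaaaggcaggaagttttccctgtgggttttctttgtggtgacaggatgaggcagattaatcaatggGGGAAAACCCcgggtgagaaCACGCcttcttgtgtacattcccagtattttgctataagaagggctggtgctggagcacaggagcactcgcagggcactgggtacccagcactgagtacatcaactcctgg
Cyp1b1: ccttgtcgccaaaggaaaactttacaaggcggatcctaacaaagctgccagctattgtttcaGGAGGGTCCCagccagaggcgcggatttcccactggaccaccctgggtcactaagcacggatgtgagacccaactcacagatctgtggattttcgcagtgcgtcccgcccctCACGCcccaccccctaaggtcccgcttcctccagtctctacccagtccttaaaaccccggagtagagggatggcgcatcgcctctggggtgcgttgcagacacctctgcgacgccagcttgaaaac
Glycam1: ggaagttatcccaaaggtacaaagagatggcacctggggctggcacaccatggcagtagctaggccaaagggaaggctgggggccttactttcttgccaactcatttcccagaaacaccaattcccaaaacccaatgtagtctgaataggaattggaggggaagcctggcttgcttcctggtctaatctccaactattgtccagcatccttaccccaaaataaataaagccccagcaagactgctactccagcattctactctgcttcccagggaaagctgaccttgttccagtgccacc
Ccl20 and Cyp1b1 each held 1 match to both, which did not overlap, whereas Glycam1 and Ccl21a held neither. Among 32544 mouse promoters of the same length, 20.8% held the first and 32.6% the second. A pair of GAAA with any 2 bases between them, the core of the interferon-stimulated response element (3.45% of promoters), was in none of the 4. A match is only a run of letters and no binding was measured.

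Genes beyond the members could be tested, by limma on log2(level + 1) over 10406 genes of which all 4 members passed the filter on low values. cGAMP changed 1634 genes (15.7%, with 5.52% higher and 10.2% lower) in spontaneous tumours at an adjusted p under 0.05. In implanted tumours it changed 2786 (26.8%, with 9.25% higher and 17.5% lower). After PBS 1181 (11.3%) differed between the models, 4.32% higher and 7.02% lower in implanted tumours. The response itself differed between the models for 112 genes (1.08%), 0.452% higher and 0.625% lower.

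Receptors of the members were almost silent in these ECs. Ccr6, the receptor of Ccl20, was at 0 in all 8 libraries, and Ccr7 and the atypical receptor Ackr4 stayed under the filter, at no more than 3.69 CPM. Among the 5 genes of this receptor list, only Ackr2, a scavenging chemokine receptor of lymphatic ECs, could be tested. Ackr2 is not taken here as a receptor of the members. It was 7.86 and 9.90 CPM in implanted PBS and 24.3 and 21.7 CPM in implanted cGAMP, and rose by 1.29 ± 0.19 on the log2 scale (limma, adjusted p = 0.000983), a call lost without clusters 6, 10 and 11. In spontaneous tumours it was 11.2 and 8.30 CPM after PBS and 7.21 and 7.46 CPM after cGAMP, and the responses differed by 1.64 ± 0.27 (limma, adjusted p = 0.0241), a call lost under 7 alternatives.

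Of 14 lymphatic markers tested, 7 rose and 0 fell in implanted tumours, where 9.25% and 17.5% of all genes did. In spontaneous tumours 1 rose and 0 fell, where 5.52% and 10.2% of all genes did. The median difference of these markers was 0.88 in implanted and 0.21 in spontaneous tumours on the log2 scale, against -0.10 and -0.11 over all genes. Lyve1 was 44.9 and 31.3 CPM in implanted PBS and 295 and 323 CPM in implanted cGAMP, and rose by 3.01 ± 0.34 (limma, adjusted p = 0.000206). In spontaneous tumours Lyve1 rose by 1.22 ± 0.34 (limma, adjusted p = 0.0379), a call lost under 8 of 16 alternatives. Pdpn, the podoplanin gene, rose by 2.03 ± 0.37 in implanted tumours (limma, adjusted p = 0.00314), and Maf and Tbx1, both transcription factors, rose by 1.47 ± 0.27 and 1.23 ± 0.27. Without clusters 6, 10 and 11 the Lyve1 and Maf calls in implanted tumours were lost, and 2 lymphatic markers were called instead of 7. After PBS, Fxyd6 was higher by 1.27 ± 0.21 in implanted tumours.

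The high endothelial list did not move as a group after cGAMP. In spontaneous tumours 0 of its 14 tested genes rose and 2 fell, where 5.52% and 10.2% of all genes did. In implanted tumours 2 rose and 2 fell, where 9.25% and 17.5% of all genes did. Gcnt1, a glycosyltransferase gene with a mean of 9.74 CPM, fell in both, by 1.24 ± 0.19 and 0.94 ± 0.19 (limma, adjusted p = 0.0021 and 0.00559). Chst2, a sulphotransferase, was at -0.34 ± 0.09 in spontaneous and 0.41 ± 0.09 in implanted tumours (limma, adjusted p = 0.0357 and 0.0101), calls lost under 7 alternatives and under 1, the latter without replicate 2 of implanted PBS. Cd34, which encodes a sialomucin of many vessels, fell by 0.53 ± 0.08 in implanted tumours (limma, adjusted p = 0.0008). After PBS 4 of the 14 genes were higher and 3 lower in implanted than in spontaneous tumours, against 4.32% and 7.02% of all genes. St3gal4 was higher by 0.95 ± 0.13 and Chst2 lower by 0.76 ± 0.09. Chst4 and Fut7, which the 10 Glycam1 cells carried, were at most 3.38 and 3.55 CPM in any library and were not tested.

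Of 10 lymph node sinus genes tested, 3 rose and 2 fell in spontaneous tumours after cGAMP, where 5.52% and 10.2% of all genes did. In implanted tumours 5 rose and 2 fell, where 9.25% and 17.5% of all genes did. Cd274, the PD-L1 gene, rose by 3.59 ± 0.29 in spontaneous and 2.32 ± 0.29 in implanted tumours (limma, adjusted p = 1.99e-05 and 0.00033). The scavenger receptor gene Marco was 6.05 and 16.5 CPM in spontaneous PBS, 2.51 CPM in replicate 2 of implanted cGAMP and 0 in the other 5 libraries. It was found in 6 of the 39 cells with at least 5 Cyp1b1 UMIs and in no EC without Cyp1b1.

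Genes of the aryl hydrocarbon receptor pathway gave no calls, and those of the NF-kB and lymphotoxin list went both ways. Of the aryl hydrocarbon receptor genes Ahr, Arnt, Tiparp and Nqo1, 0 passed in any of the 4 comparisons by limma. At an unadjusted p under 0.05 by limma, 1 passed in implanted tumours and 3 between the models after PBS. The levels tested were means over all ECs, whereas 87.3% of the Cyp1b1 UMIs lay in cluster 11. Changes of these receptor pathway genes within cluster 11 were not tested. Among 20 NF-kB and lymphotoxin genes, 2 rose and 2 fell in spontaneous tumours, where 5.52% and 10.2% of all genes did. In implanted tumours 7 rose and 3 fell, where 9.25% and 17.5% of all genes did. Tnfaip3, a feedback inhibitor of NF-kB, rose by 0.90 ± 0.17 in implanted tumours, a call lost without clusters 6, 10 and 11. Il1r1 was at -1.08 ± 0.14 there, a call lost under 0 alternatives. Of 10 other chemokines tested, 5 rose and 0 fell in spontaneous tumours, where 5.52% and 10.2% of all genes did. In implanted tumours 5 rose and 2 fell (Cxcl1 and Cxcl12, the latter by 0.87 ± 0.18), where 9.25% and 17.5% of all genes did. Ccl2 rose by 3.01 ± 0.36 in spontaneous and 4.70 ± 0.36 in implanted tumours (limma, adjusted p = 0.000408 and 2.1e-05).

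Markers of other cells were tested too. Of all genes, 5.52% rose and 10.2% fell in spontaneous tumours, and 9.25% rose and 17.5% fell in implanted tumours. Of 5 immune markers 5 rose in implanted tumours (summed level 10.2 to 15.6 CPM after PBS and 39.1 to 148 CPM after cGAMP), and 0 passed in spontaneous ones. All 3 fibroblast markers tested rose in implanted tumours (12.4 to 14.3 CPM against 58.8 to 75.1 CPM) and 2 in spontaneous ones. Of 7 mural markers, 4 rose in spontaneous and 2 in implanted tumours, and of 6 epithelial markers 2 rose in implanted and 0 in spontaneous tumours. Of 9 milk protein genes tested, which matter because Glycam1 is also a milk gene, 1 rose in spontaneous tumours and 1 rose and 1 fell in implanted ones, the gene that rose being Xdh in both. Csn3 was found in 9 of the 10 cells with at least 1000 Glycam1 UMIs and in 66.7% of ECs without Glycam1, and Lalba in 1 of the 10. Of 7 endothelial markers 1 rose and 1 fell in spontaneous and 1 rose and 4 fell in implanted tumours. The part of these cells in the members' levels was not tested.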

How the data were processed

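Libraries were 10x Genomics 3′ v3 of sorted live CD45-/CD31+ cells. The authors aligned reads to mm10 with Cell Ranger 3.0.0 and, in Seurat 3.1.1, dropped genes in under 3 cells and cells with under 500 genes or over 10% mitochondrial reads. The deposited values are the natural log of 1 plus UMIs per 10000 of the cell, and whole UMIs were worked back from them (tolerance 0.01). No doublet removal is stated and none was made here.

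The members and gene lists were chosen with earlier results of these data known. Cells were clustered with Seurat 5.3.0 (2500 variable genes, 30 components, resolution 0.5). Clusters with under 75% Pecam1 cells were removed, and the ECs were clustered again without 444 genes, the 441 raised by cGAMP among them. Levels on the log2(CPM + 1) scale were fitted over all 8 libraries with limma 3.58.1 (R 4.3.3) for the 10406 genes that reached 5 CPM in 2 or more libraries, with Benjamini-Hochberg adjustment at 0.05. A fold on this scale understates the change of low genes. By rule, up to 4 called genes per list with a mean of at least 10 CPM could be named, and not all of these are given above. Other genes named were chosen after their values were seen. Thinned shares are exact expectations. Wilson intervals, and the limit of 3 cells for a count of 0, cover counting error only. On simulated data for the implanted comparison (10211 genes), 84 of 100 genes changed by 1 log2 unit and 100 of 100 changed by 2 were recovered, with 8 unchanged genes called. Alternatives were other pseudocounts, filters, scalings, cell sets and thinning, and leaving out each library. Libraries of a group came from a stated 2 mice per group, but the labels tie no library to a mouse, so p-values measure the spread between libraries. Results of 2 listed genes are not reported here.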

Additional observations from a re-analysis of the deposited data

Results flagged for a closer look

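For Ccl20 and Cyp1b1, every cGAMP library of implanted tumours lay above, and every cGAMP library of spontaneous tumours below, the PBS libraries of the same model, on the scale used in the report. The cGAMP minus PBS difference in log2(CPM + 1) was larger in implanted than in spontaneous tumours by 7.43 for Ccl20 and by 4.68 for Cyp1b1. These differences between models were not tested, and the spontaneous Ccl20 groups were separated by 6.44 against 6.41 CPM. The spontaneous separation was lost with median-of-ratios scaling for Ccl20 (6.50 CPM in a cGAMP library against 5.95 CPM in a PBS library). For Cyp1b1 it was lost with summed UMIs (10.8 against 10.1 CPM) and in ECs of at least 2000 UMIs (11.16 against 11.13 CPM).

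For 4 genes of the lists with a mean of at least 10 CPM the response to cGAMP differed between the models by limma's test of the difference. It was larger in implanted tumours by 0.74 for Chst2, by 1.91 for Maf and by 1.64 for Ackr2 on the log2 scale, and for Cd34 the difference was -0.57. The adjusted p-values were 0.0304, 0.0496, 0.0241 and 0.0382, and the calls were lost under 7, 14, 7 and 9 alternatives. Among list genes under 10 CPM, Madcam1 (3.17) and Tnf (1.99) also passed, both at an adjusted p of 0.0470.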

How the results depend on the processing

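The number of genes called in spontaneous tumours was 1634, and was 977 over all deposited cells, 3101 with UMIs summed per library, and 607 to 2378 with a library left out. In implanted tumours 2786 became 1450 to 2688 with a library left out. For the difference between the models, 112 became 0 with no filter on low values by limma (1970 at an unadjusted p under 0.05), 43 over all cells, 69 in cells with Pecam1, and 1 to 232 with a library left out. Between the models after PBS, 1181 became 579 with no filter, 680 over all cells, and 327 to 1797 with a library left out. Median-of-ratios scaling moved the share of calls that were higher from 35.1% to 62.0% in spontaneous tumours, from 34.6% to 51.1% in implanted tumours and from 38.1% to 64.7% between the models after PBS, and moved the median of all genes from -0.11 to -0.00, from -0.10 to -0.01 and from -0.07 to 0.02. With the replicate number as a block the counts were 1594, 2731, 124 and 1159. The numbers did not pair the libraries, since correlations of deviations ran from -0.157 to 0.133.

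For the members, values are cGAMP minus PBS in log2(CPM + 1), and the alternatives that leave out cells were chosen after seeing the data. Ccl20 in spontaneous tumours was -3.19 without the top cell of each library and -2.44 to -0.26 with a library left out. In implanted tumours it was 3.85 with a pseudocount of 5 CPM and 5.36 to 6.80 with a library left out. Glycam1 in spontaneous tumours was -4.54 in cells with Pecam1, -5.77 with summed UMIs and -4.52 in ECs of at least 2000 UMIs. It was -3.50 without the top cells, -1.73 without cells of 1000 or more Glycam1 UMIs, and -4.05 to -3.65 with a library left out. Glycam1 in implanted tumours was -2.97 to 0.81 with a library left out, and reversed without replicate 2 of implanted PBS. Cyp1b1 was -1.83 to -0.46 in spontaneous tumours with a library left out, and in implanted tumours 2.31 with a pseudocount of 5 CPM and 2.79 to 4.28 with a library left out. Ccl21a in spontaneous tumours reversed to 0.10 with median-of-ratios scaling and 0.060 without the top cells, and was -0.75 to 0.73 with a library left out. It reversed without replicate 2 of spontaneous PBS (0.73) and without replicate 2 of spontaneous cGAMP (0.41). In implanted tumours Ccl21a was 1.95 to 2.73 with a library left out. Among list genes, Dcn between the models reversed to -0.051 without clusters 6, 10 and 11. Of 1035 values of named list genes over the alternatives, 832 kept their call, 202 lost it and 1 reversed, the Dcn value. The cause of these changes was not tested. Depth limits the shares most in replicate 1 of implanted cGAMP, where 30.9% of ECs held under 2000 UMIs.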
